A study of Caenorhabditis elegans with 8 samples.

Results

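Genes for proteins of the mitochondrial ribosome were examined in young adult Caenorhabditis elegans after RNAi against CstF50 and in wild-type animals. They were chosen by name. Of 44968 rows in the authors' deposited table of poly(A) RNA, only 2 carry a gene name that starts with mrpl- or mrps-, namely mrps-5 and mrpl-41. The authors list 66 further genes of this class under sequence names and 2 under other names, mrps-30 as tag-264 and mrpl-55 as tag-313. The class was therefore completed through RefSeq gene symbols (assembly WBcel235) once it was seen that only 2 genes were named in this way. RefSeq gives 71 such genes, of which 70 have a row in both deposited tables, 41 of the large subunit (mrpl-) and 29 of the small subunit (mrps-). The remaining gene, mrpl-42, was not analysed here. All 70 are called the family in what follows, and the 2 genes with the authors' own names are described first.

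The mitochondrial ribosome translates the few mRNAs of the mitochondrial genome, whose protein products all belong to the respiratory chain and the ATP synthase. Its RNAs are made inside the organelle, whereas its proteins are encoded in the nucleus, made on cytosolic ribosomes and imported, so that building it needs both genomes. In C. elegans, RNAi against mrps-5 is known to lengthen life and to induce the mitochondrial unfolded protein response. CstF50, encoded by the worm gene cpf-1, is part of the CstF complex (cleavage stimulation factor), which binds pre-mRNA downstream of the poly(A) signal and promotes its cleavage before polyadenylation. Many worm genes lie in operons, where 3' end formation of an upstream gene and trans-splicing of the downstream gene take place on the same transcript.

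The series holds 8 libraries in 4 groups of 2, from whole young adults grown in synchronized liquid culture. CstF50 RNAi and wild-type animals were each sequenced as poly(A)-selected RNA and as rRNA-depleted total RNA, and wild type is the strain N2 on the empty RNAi vector L4440, per the headers of the poly(A) values. The question put to these libraries is how RNA levels differ when a 3' end formation factor is targeted. Poly(A) values are 1 FPKM (fragments scaled by transcript length and by the total of mapped fragments) per gene and group, with no value per library and no known depth. The rRNA-depleted table gives mean normalized counts of a condition A and a condition B whose headers do not say which is wild type, so its differences are given as B over A and assigned to no treatment. Whole counts per rRNA-depleted library were recovered from those means, and their sums over recovered genes were 35638137 and 15056102 in B and 6657926 and 2252065 in A. Genes with the highest means, 241 in B and 300 in A, could not be recovered, so the sums fall short of the library depths. Over all genes the mean normalized counts summed to 2.29e+07 in B and 9.40e+07 in A. The shortfall is thus larger in A, and the recovered sums do not compare the depths of the conditions. No label says that the libraries of a group came from separate cultures, so the p-values measure a spread that may be technical.

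The target gene cpf-1 had 67.8 FPKM in CstF50 RNAi animals and 50.5 FPKM in wild type in the authors' deposited table of poly(A) RNA, a difference that was not called (Cuffdiff q = 0.613). Its mean in the authors' deposited table of rRNA-depleted RNA was 8662 normalized counts in B and 1695 in A (DESeq adjusted p = 0.00296). The poly(A) values therefore do not show a loss of the target mRNA in the libraries labelled CstF50 RNAi. Markers of other tissues moved too. Of 39 tested sperm genes 19 were called higher in the RNAi group and none lower, and their summed level was 2001 FPKM in CstF50 RNAi animals and 350 FPKM in wild type, with 5 rows listed at 0 in RNAi and 10 in wild type. Of 100 tested collagen and cuticle genes 46 were called higher and 6 lower. Of 6 yolk genes 1 was called lower, as was 1 of 5 oocyte genes, with median log2 fold changes of -0.25 and -1.08 and no row listed at 0 in either group. In rRNA-depleted RNA 44 of 55 sperm genes were called higher in B, with sums of 35669 normalized counts in B and 621 in A, and 0 of these genes at 0 in B against 17 at 0 in A. There 70 of 166 collagen and cuticle genes were called higher in B, no oocyte gene was called, and 1 of 6 yolk genes was called higher. The part of these tissue differences in the results below was not tested. In whole-animal RNA, fewer cells of a type and less RNA per cell cannot be told apart.

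The gene mrps-5 encodes a small subunit protein related to bacterial ribosomal protein S5 and lies at V:12563466-12565767 (ce10). It had 52.8 FPKM in CstF50 RNAi animals and 109 FPKM in wild type in the authors' deposited table of poly(A) RNA. The log2 fold change was -1.05 with a standard error of 0.50, which is the error implied by the authors' p-value, and the gene was not called (Cuffdiff q = 0.122). This value lies 0.15 below the median of all tested genes, which was itself -0.90, and that distance was well within the error. In rRNA-depleted RNA the recovered levels were 867 and 928 normalized counts in the B libraries and 927 and 923 in the A libraries. The conditions overlap, and the log2 fold change of -0.04 was not called in the authors' deposited table (DESeq adjusted p = 1). Behind these levels stand 3148 and 1430 recovered counts in B and 685 and 230 in A. The lower FPKM in poly(A) RNA thus stood beside overlapping levels in rRNA-depleted RNA, and neither difference passed its test.

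The gene mrpl-41 encodes a large subunit protein and lies at II:288937-290399 (ce10), a locus that a second row shares and that overlaps an annotated antisense non-coding RNA gene. Its level in the authors' deposited table was 66.6 FPKM in CstF50 RNAi animals and 111 FPKM in wild type. The log2 fold change of -0.73 (SE 0.58) was not called (Cuffdiff q = 0.360), and it was 0.16 above the median gene. The recovered levels in rRNA-depleted RNA were 244 and 238 normalized counts in B and 310 and 409 in A, so that both B libraries lay below both A libraries. The log2 fold change of -0.58 was not called in the authors' deposited table (DESeq adjusted p = 0.792). A limma-voom fit to the recovered counts gave -0.51 (SE 0.17) and called the gene (adjusted p = 0.0450), a call that was lost without any 1 of the 4 libraries (adjusted p = 0.0992 without B library 1, 0.0767 without B library 2, 0.0756 without A library 1 and 0.210 without A library 2). The count table cannot separate the strands here unless the counting used strand, which the sources used here do not give.

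Across the whole family, poly(A) RNA was mostly lower in CstF50 RNAi animals, by about as much as the median gene of the table. The 67 tested family genes had 13.3 to 318 FPKM in CstF50 RNAi animals, with a median of 45.6, and 4.28 to 1728 FPKM in wild type, with a median of 96.0. Of the 67, 58 (86.6%) have a lower FPKM in CstF50 RNAi animals in the authors' deposited table, where 81.3% of all tested genes with a fold were lower. By the authors' q-value under 0.05, 15 family genes were called lower (22.4%), against 13.6% of all tested genes. A further 2 were called higher (3%), about the 3.12% of all tested genes, and 50 were not called. At an unadjusted p under 0.05 there were 29 of 67 in either direction, beside 2835 of all 8513 tested genes. With the p-values adjusted over all 44968 rows, untested ones included, 5 were called lower and 2 higher. No share over all genes was taken at that adjustment. The median log2 fold change of the family was -0.98, beside -0.90 over all tested genes, and its standard deviation was 0.95 beside 1.26.

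**Figure D1:**
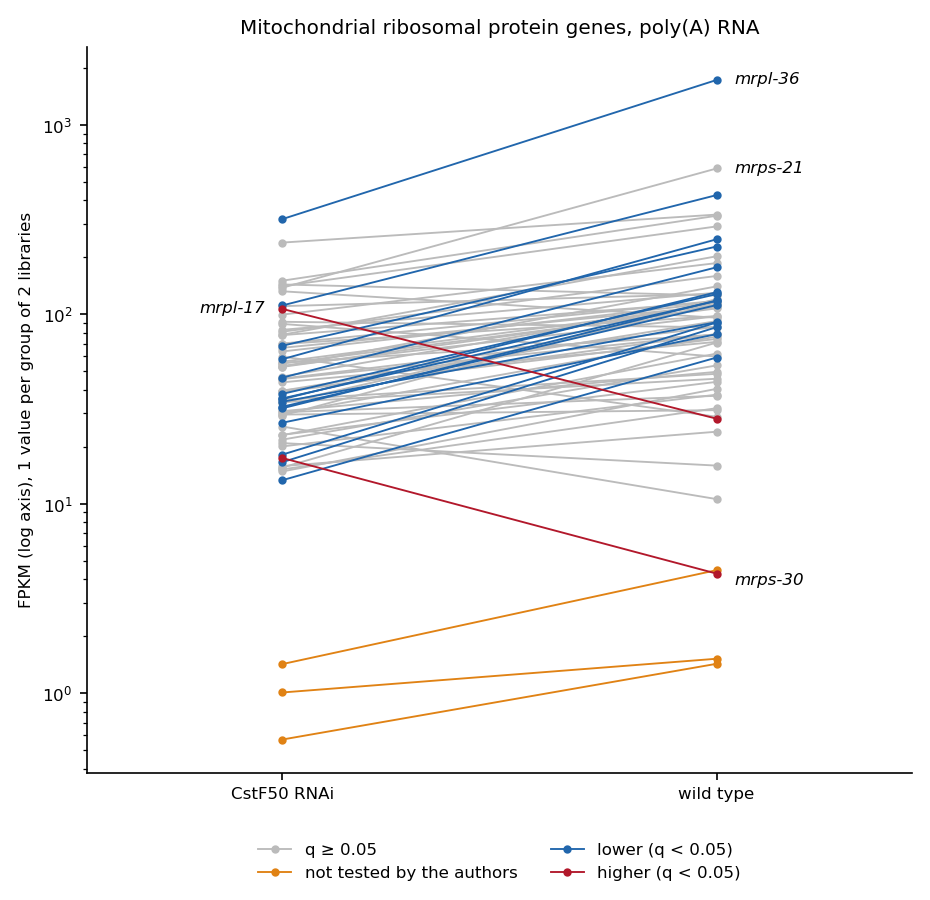
Poly(A) level of the family genes in FPKM on a log scale in CstF50 RNAi and wild type, with 1 value per gene and group and no library values available. Most genes have the lower level in RNAi, with medians over tested genes of 45.6 FPKM in CstF50 RNAi animals and 96.0 FPKM in wild type, and mrps-30 and mrpl-17 are called in the other direction.

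Relative to the median gene, no family gene was called lower. This test divides the distance of a gene's log2 fold change from the median of -0.90 by its implied standard error, with Benjamini-Hochberg adjustment over 8244 genes. It called 4 family genes higher (6.0%) and 0 lower, where it called 5.64% of all genes higher and 0.509% lower. At an unadjusted p under 0.05 there were 5 family genes below the median, a count for which no share over all genes was taken. The 15 genes called lower against wild type had the direction of the table as a whole, and none of them was shown to exceed it.

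The genes called lower were 13 of 39 tested large subunit genes and 2 of 28 tested small subunit genes, beside 1161 of all 8513 tested genes (13.6%). The medians of the subunits were closer, at -1.05 for the large and -0.89 for the small subunit, and the difference between subunits was not tested. The largest fall was that of mrpl-36, related to the bacterial large subunit protein L36 and the most abundant poly(A) RNA of the family, at III:9847537-9848029. It had 318 FPKM in CstF50 RNAi animals and 1728 FPKM in wild type in the authors' deposited table (log2 fold change -2.44, SE 0.55, Cuffdiff q = 0.000751). Next were mrpl-19 with 16.6 FPKM in CstF50 RNAi animals and 85.6 FPKM in wild type in the authors' deposited table, and mrpl-34 with 18.2 and 90.6 FPKM in the same order. Their log2 fold changes were -2.37 (SE 0.50, Cuffdiff q = 0.000315) and -2.32 (SE 0.57, Cuffdiff q = 0.00240). Both are large subunit proteins with bacterial relatives, and the loci of both overlap another annotated protein-coding gene. For mrpl-37, a large subunit protein with no bacterial counterpart, the authors' deposited table has 13.3 FPKM in CstF50 RNAi animals and 59.2 FPKM in wild type (Cuffdiff q = 0.00577).

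Of the remaining genes called lower, mrpl-49, mrpl-50 and mrpl-53 encode large subunit proteins that were described in mammals and have no bacterial counterpart. Their levels in the authors' deposited table were 58.0, 38.0 and 111 FPKM in CstF50 RNAi animals, against 249, 128 and 426 FPKM in wild type. The folds of all 15 called genes ran from 2.63 to 5.43 times lower in CstF50 RNAi animals. Related to bacterial large subunit proteins are mrpl-1, mrpl-9, mrpl-16, mrpl-21, mrpl-22 and mrpl-23, and these had 31.9 to 46.3 FPKM in CstF50 RNAi animals and 90.9 to 177 FPKM in wild type in the authors' deposited table. The small subunit genes called lower were mrps-26, with 26.8 FPKM in CstF50 RNAi animals and 78.6 FPKM in wild type, and mrps-33, with 68.3 and 228 FPKM in that order, again in the authors' deposited table. Both belong to proteins that bacteria lack.

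The folds of mrps-21 and mrps-35, both of the small subunit, were as large as those of called genes but less certain. The authors' deposited table has mrps-21 at 138 FPKM in CstF50 RNAi animals and 589 FPKM in wild type, with an implied SE of 1.39 and a Cuffdiff q of 0.275. It has mrps-35 at 15.5 FPKM in CstF50 RNAi animals and 71.0 FPKM in wild type, with an implied SE of 1.52 and a Cuffdiff q of 0.296. Across the 67 tested genes the implied SE had a median of 0.57, against 1.39 and 1.52 for these 2.

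**Figure D2:**
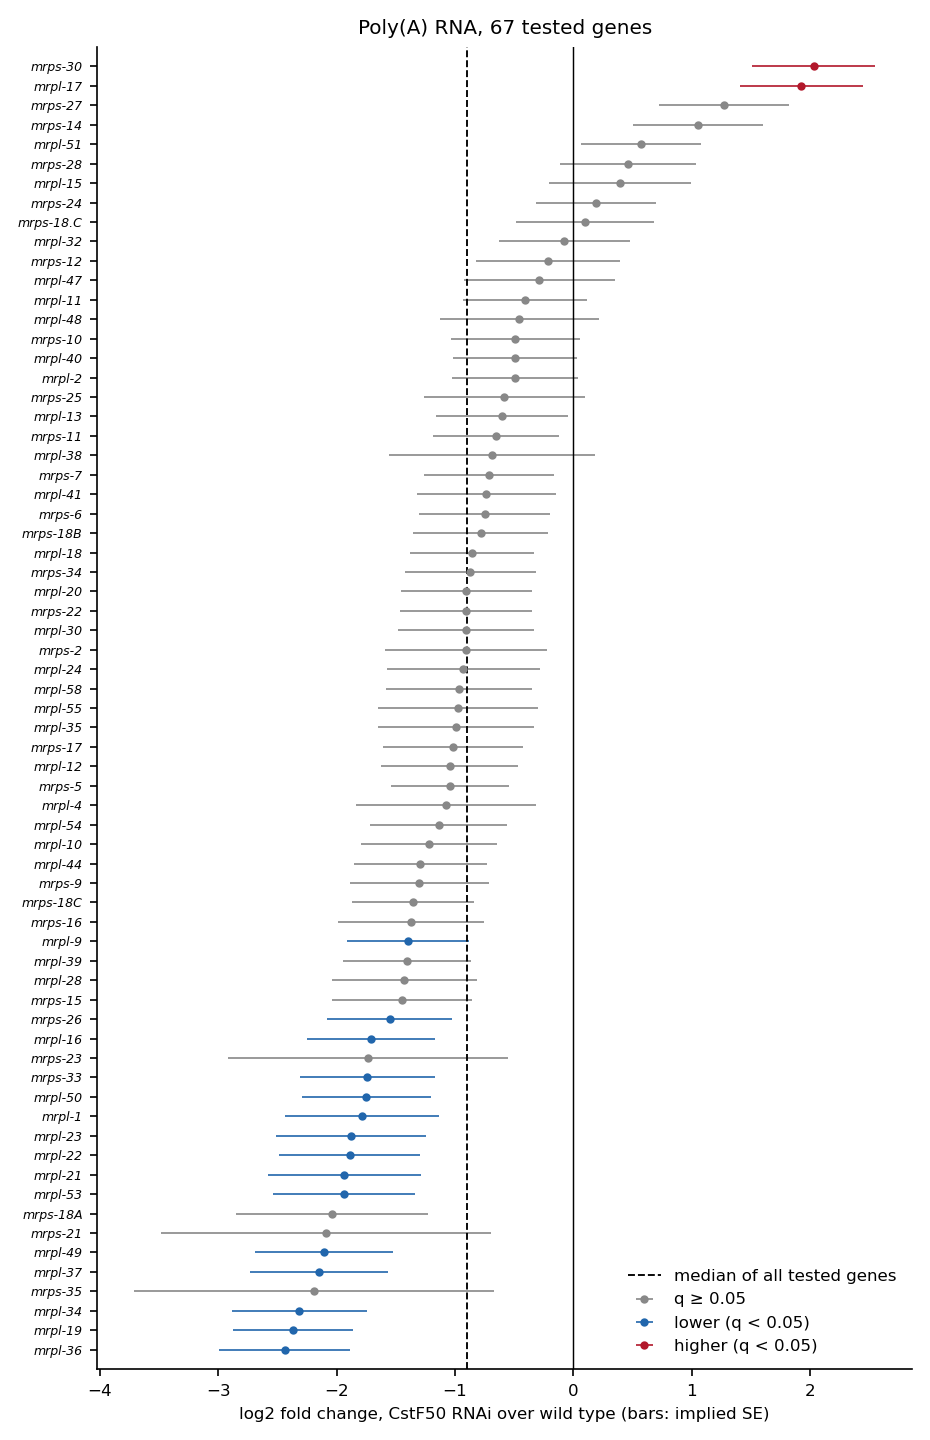
Log2 fold change in poly(A) RNA, CstF50 RNAi over wild type, of the 67 tested family genes in order of size, with bars of 1 implied standard error and a dashed line at the median of all tested genes. The genes run from -2.44 for mrpl-36 to 2.03 for mrps-30, and the family's median of -0.98 lies beside the dashed line at -0.90.

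Higher poly(A) RNA in CstF50 RNAi animals was called for mrps-30 and mrpl-17. The mrps-30 protein is counted in the small subunit by its name, although in mammals the corresponding protein sits in the large subunit. It had the lowest wild-type level of the tested family, with 17.5 FPKM in CstF50 RNAi animals and 4.28 FPKM in wild type in the authors' deposited table (log2 fold change 2.03, SE 0.52, Cuffdiff q = 0.00340), at I:10636682-10638966. The large subunit gene mrpl-17, at I:3162809-3163651, had 107 FPKM in CstF50 RNAi animals and 28.1 FPKM in wild type in the authors' deposited table (log2 fold change 1.93, SE 0.52, Cuffdiff q = 0.00533). Relative to the median gene, these log2 differences became 2.92 (adjusted p = 2.64e-06) for mrps-30 and 2.82 (adjusted p = 6.14e-06) for mrpl-17 by the normal deviate. The same test called mrps-27 and mrps-14 higher than the median gene, with adjusted p-values of 0.00255 and 0.00926. The authors' deposited table does not call them: mrps-27 had 25.6 FPKM in CstF50 RNAi animals and 10.6 FPKM in wild type (Cuffdiff q = 0.0870), and mrps-14 had 59.9 and 28.8 FPKM in that order (Cuffdiff q = 0.158). The locus of mrps-27 overlaps another annotated protein-coding gene, and those of mrps-30, mrpl-17 and mrps-14 overlap none.

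Poly(A) RNA of mrpl-45, mrpl-46 and mrps-31 was not tested by the authors (status NOTEST). These 3 genes had 0.569, 1.01 and 1.42 FPKM in CstF50 RNAi animals, against 1.43, 1.52 and 4.46 FPKM in wild type, in the authors' deposited table. Their rRNA-depleted RNA was within the range of the family, the authors' deposited table giving means of 733, 302 and 532 normalized counts in B and 920, 593 and 854 in A. The low values were thus found in 1 of the 2 tables only, and levels were not compared across tables because they were normalized separately.

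In rRNA-depleted RNA the family was lower in condition B, while the median gene was not. The means of the 70 genes ran from 70.9 to 3553 normalized counts in B, with a median of 476, and from 148 to 9614 in A, with a median of 696. The mean in B is the lower one for 64 of 70 genes (91.4%) in the authors' deposited table, where 46.3% of all genes with a mean of at least 10 do. By the authors' adjusted p-value under 0.05, 16 family genes were called lower in B (22.9%), against 2.77% of all genes and 4.53% of those with a mean of at least 10. None was called higher by DESeq, against 5.54% of all genes, and no family gene was higher at an unadjusted p under 0.05. The median log2 fold change of the family was -0.52 beside 0.02 over all genes, and its range was -1.82 to 0.33. The standard deviation of the fold changes was 0.44 in the family and 1.29 over all genes with a mean of at least 10.

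**Figure D3:**
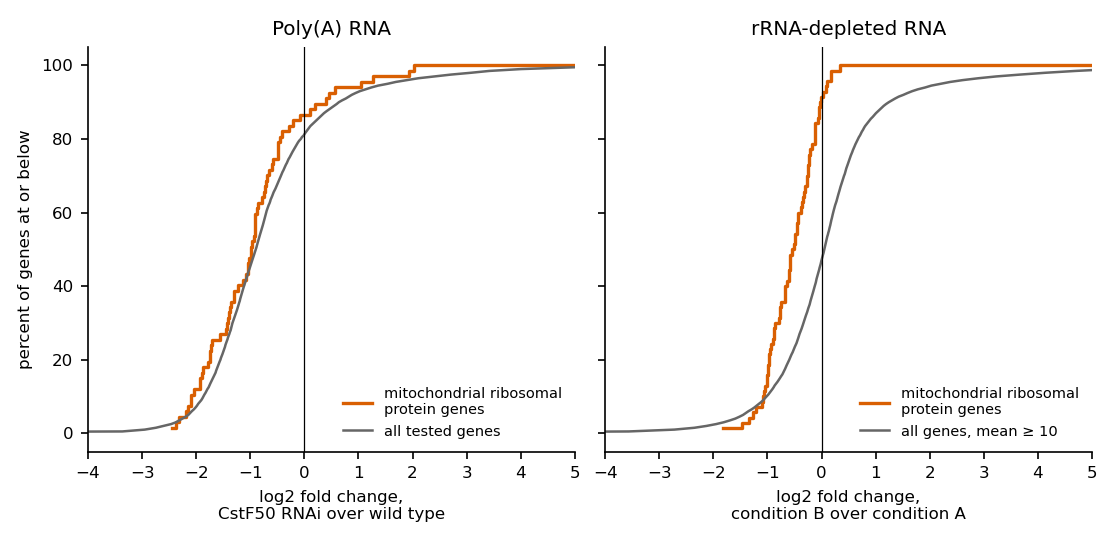
Cumulative share of genes by log2 fold change in each deposited table, for the family and for all genes. The latter are all tested genes in poly(A) RNA and genes with a mean of at least 10 normalized counts in rRNA-depleted RNA. In poly(A) RNA the medians are -0.98 for the family and -0.90 for all tested genes, and 86.6% and 81.3% of genes in that order lie below 0. In rRNA-depleted RNA the family's median of -0.52 lies to the left of 0.05, the median of genes with a mean of at least 10. Over all genes that median is 0.02.

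The recovered libraries show the same difference gene by gene. Both B libraries lay below both A libraries for 54 of 70 family genes (77.1%), where 31.7% of genes with a mean of at least 10 did so. Both lay above for 3 genes (4.3%), namely mrpl-40, mrps-22 and mrps-28, where 39.7% of genes did, and the libraries overlapped for 13. The spread between libraries was small, with a median standard deviation of log2 normalized counts of 0.086 in B and 0.088 in A. The limma-voom fit to the recovered counts, with TMM scaling, called 45 family genes lower in B (64.3%) and 0 higher, with 15.9% and 19.3% of all genes in these directions. That count fell most without A library 1, and a call in the other direction appeared without either B library. The shares of all genes in these fits were not taken. The family's median log2 fold change was -0.53 with all 4 libraries. It was -0.56 without A library 1 and without A library 2, -0.60 without B library 1 and -0.50 without B library 2. All 16 genes that the authors' adjusted p-value called were also called by limma-voom, and 12 of them without A library 1.

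Of the 16 genes, 11 belong to the large subunit and 5 to the small subunit, of 41 and 29. Beside them stand 2.77% of all genes called lower in B, and 4.53% of those with a mean of at least 10. The highest mean of the family in A was that of mrps-14, related to bacterial small subunit protein S14, at II:10240251-10242432. In B its mean of 3487 normalized counts was below the family's highest mean of 3553, that of another gene. These counts are not scaled by transcript length. The recovered levels of mrps-14 were 3565 and 3410 normalized counts in B and 9742 and 9486 in A, far apart relative to the spread within each condition. The log2 fold change was -1.46 (DESeq adjusted p = 2.67e-10 in the authors' deposited table). The same gene had the higher FPKM in CstF50 RNAi animals in poly(A) RNA, as given above. For mrpl-23, whose bacterial relative lies at the exit of the peptide tunnel, the levels were 367 and 297 normalized counts in B and 809 and 871 in A (log2 fold change -1.34, DESeq adjusted p = 0.000250 in the authors' deposited table). For mrpl-51, a protein without a bacterial counterpart, they were 855 and 904 in B and 1951 and 2260 in A (log2 fold change -1.26, DESeq adjusted p = 3.09e-05 in the authors' deposited table). None of these groups overlap.

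The neighbours mrps-2 and mrpl-4 share the authors' locus V:8465596-8468922 and are annotated on the same strand. Levels of mrps-2, related to bacterial small subunit protein S2, were 347 and 358 normalized counts in B and 1041 and 1449 in A, the largest fall of the family at a log2 fold change of -1.82 (DESeq adjusted p = 0.0330 in the authors' deposited table). An annotated snoRNA gene lies within the span of mrps-2 on the same strand, and reads of the snoRNA and of the gene cannot be told apart here. Levels of mrpl-4, related to a bacterial protein that lines the peptide tunnel, were 910 and 835 in B and 1781 and 2260 in A (log2 fold change -1.21, DESeq adjusted p = 0.0283 in the authors' deposited table). In both genes the B libraries lie well below the A libraries, which differ among themselves more than those of B. Neither was called in poly(A) RNA: mrps-2 had 39.5 FPKM in CstF50 RNAi animals and 74.2 FPKM in wild type, and mrpl-4 had 15.2 and 32.0 FPKM in that order, in the authors' deposited table.

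The other genes called lower in B were mrpl-13, mrpl-18, mrpl-24, mrpl-32, mrpl-46, mrpl-49, mrpl-50 and mrpl-53 of the large and mrps-17, mrps-23 and mrps-33 of the small subunit. Their means in the authors' deposited table were 237 to 749 normalized counts in B and 477 to 1497 in A. All 16 genes had both B libraries below both A libraries, with folds of 1.71 to 3.53 times lower in B. The calls of mrpl-46, mrpl-49, mrpl-53 and mrps-33 were lost in limma-voom without A library 1 (adjusted p = 0.0686, 0.0877, 0.110 and 0.0621). At the other end, mrpl-40 had 581 and 458 normalized counts in B and 435 and 389 in A, the highest fold change of the family at 0.33, and was not called (DESeq adjusted p = 0.919 in the authors' deposited table).

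**Figure D4:**
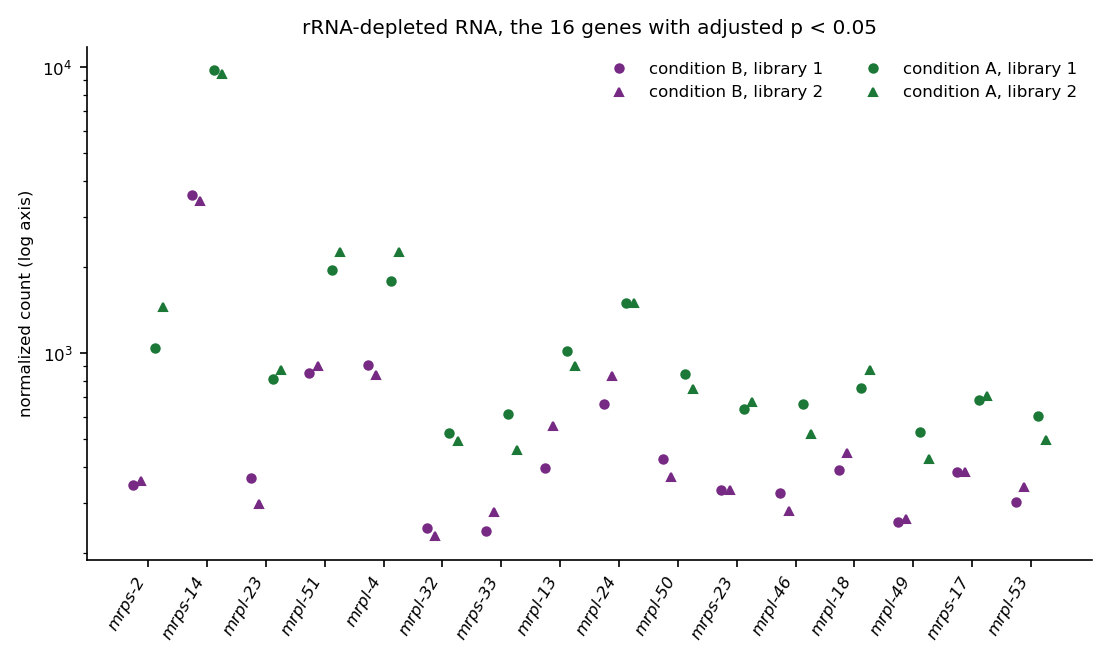
Recovered normalized counts in each rRNA-depleted library, on a log axis, for family genes that include the 16 called lower in B, with 2 points for condition B and 2 for condition A. Across all 70 family genes, drawn here or not, both B libraries lie below both A libraries for 54. Among the 16 genes called lower in B, mrps-14 has the highest levels, at 3565 and 3410 in B and 9742 and 9486 in A.

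Of the 15 family genes called lower in poly(A) RNA, 5 (33.3%) were also called lower in B, and of the 15 genes called lower in B and tested in poly(A) RNA the same 5 (33.3%) were called there. Over the 8446 tested genes with a row in both tables, 139 genes were called lower in both, which is 12% of the 1158 called lower in poly(A) RNA and 32.2% of the 432 called lower in B. Of the family, 28 genes were called in either table. These 5 were mrpl-23, mrpl-49, mrpl-50, mrpl-53 and mrps-33. For mrps-33 the authors' deposited tables give 68.3 FPKM in CstF50 RNAi animals and 228 FPKM in wild type, and the recovered levels were 240 and 278 normalized counts in B and 615 and 458 in A. For mrpl-50 the recovered levels were 428 and 370 in B and 847 and 747 in A, and for mrpl-49 they were 257 and 264 in B and 529 and 426 in A. In contrast, mrpl-37 was called lower in poly(A) RNA, with the values given above, and had 248 and 310 normalized counts in B and 288 and 233 in A, where the conditions overlap. Of the genes called higher in poly(A) RNA, mrps-30 had 1019 and 965 in B and 957 and 1040 in A, where the conditions overlap. The other, mrpl-17, had 225 and 212 in B and 306 and 289 in A. Both B libraries of mrpl-17 thus lay below both A libraries, and it was not called (DESeq adjusted p = 0.678). Across 67 family genes Spearman's rho between the log2 fold changes of the tables was -0.02, and across 8147 genes of the whole series it was 0.31. The points of this comparison come from different libraries and different genes are not independent replicates.

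Short genes of the family had higher FPKM and, in rRNA-depleted RNA, larger falls in B. Spliced lengths in the WBcel235 annotation ran from 309 to 2164 bases with a median of 755, which is below the median of 1388 over protein-coding genes with a mean of at least 10. Spearman's rho between mean FPKM and spliced length was -0.68 across 67 tested genes. In rRNA-depleted RNA rho between log2 fold change and length was 0.34 across 70 genes, and 0.22 across 13451 protein-coding genes. The 35 shorter genes had a median log2 fold change of -0.76 with 11 called, and the 35 longer genes had -0.36 with 5 called. Over 10225 protein-coding genes in the family's whole range of lengths the median was -0.06 and 4.47% were called lower. These genes were not split by length, so neither portion of the family has a value of matched length beside it. In poly(A) RNA rho between log2 fold change and length was -0.02. All genes share the same libraries, and the part of transcript length in the result was not tested.

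**Figure D5:**
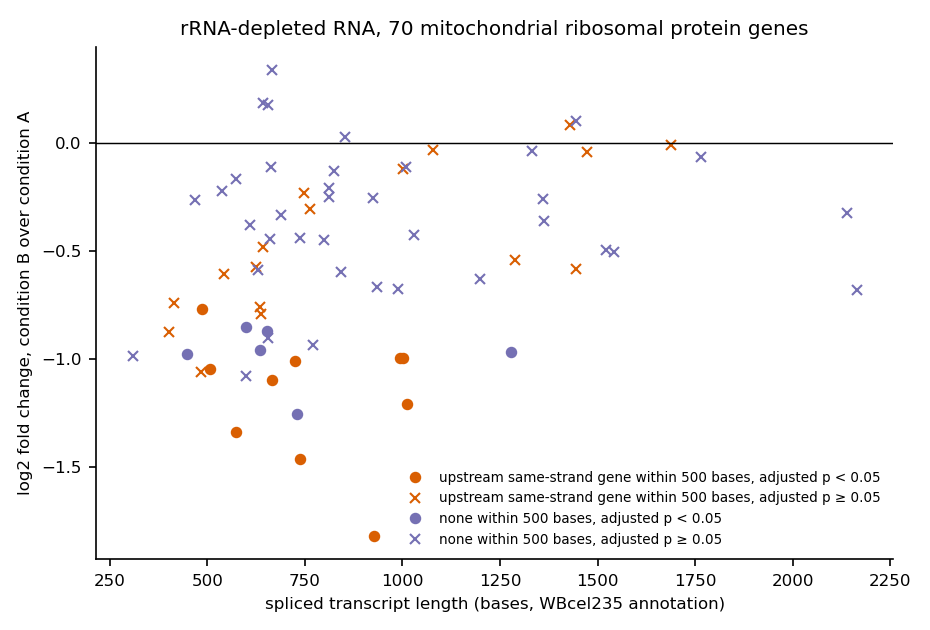
Log2 fold change against spliced length in bases for the family genes. Spearman's rho is 0.34 across 70 genes in rRNA-depleted RNA (B over A), where most points lie below 0 at every length. Given for comparison, rho between the poly(A) log2 fold change (CstF50 RNAi over wild type) and length is -0.02 across the 67 tested genes.

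The family shared features of position that its names did not set. Chromosome III held 23 of the 70 genes, or 32.9%, where it holds 13.2% of protein-coding genes, and the X chromosome held 0, where it holds 13.7%. An upstream protein-coding gene on the same strand ended within 500 bases of the start of 27 family genes, or 38.6%, against 18.1% of 19985 protein-coding genes in the annotation. Such spacing is common inside operons, but operons themselves were not annotated in the files used here. Genes with such a neighbour include mrps-5 (103 bases), mrps-14 (105 bases), mrpl-23 (95 bases) and mrpl-50 (25 bases). In rRNA-depleted RNA 10 of the 27 were called lower in B with a median log2 fold change of -0.76, and 6 of the other 43 with a median of -0.43. In poly(A) RNA 7 of 27 were called lower with a median of -0.93, and 8 of the 40 tested others with a median of -1.0. The shares called lower over all genes were 2.77% in B and 13.6% of tested genes in poly(A) RNA. The difference between the genes with and without such a neighbour was not tested.

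Some family genes overlap other annotated genes, and whether reads were shared was not tested. The annotation places 22 of the 70 on top of another gene, 2 of them on a non-coding RNA gene, and 18 have an authors' locus that several rows share. Without the 22 the 48 others had a median log2 fold change of -0.60 in B with 12 called lower, and 11 of their 45 tested members were called lower and 2 higher in poly(A) RNA.

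Other genes of mitochondrial gene expression were given the same tests. Relative to the median gene, none of the 5 lists of other mitochondrial genes had a gene called lower, while 4 respiratory chain genes, 1 gene of the mitochondrial genome and 1 stress and import gene were called higher. The counts that follow are against wild type without that centring. Over all tested genes 13.6% were called lower and 3.12% higher in poly(A) RNA, with a median log2 fold change of -0.90. Over all genes 2.77% were called lower and 5.54% higher in B, with a median of 0.02. Of 18 tested mitochondrial translation factors and tRNA synthetases 2 were called lower in CstF50 RNAi animals and none higher, with a median log2 fold change of -0.98. They were the elongation factor genes tufm-1, with 35.0 FPKM in CstF50 RNAi animals and 107 FPKM in wild type, and tsfm-1, with 36.5 and 105 FPKM in that order, in the authors' deposited table. None of 20 was called in rRNA-depleted RNA, and their median there was 0.05, beside -0.52 in the family. Of 5 tested genes for expression of mitochondrial DNA 2 were called lower, the RNA polymerase gene rpom-1 (1.93 FPKM in CstF50 RNAi animals and 6.75 in wild type in the authors' deposited table) and mma-1 (8.90 and 33.6 FPKM in that order), and none of 7 was called in rRNA-depleted RNA. The gene dap-3, whose protein belongs to the small subunit in mammals but whose name lies outside the family, had 21.3 FPKM in CstF50 RNAi animals and 45.5 FPKM in wild type and was not called in either of the authors' deposited tables.

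Of 11 tested genes of the mitochondrial genome 3 were called lower in poly(A) RNA, among them the cytochrome b gene ctb-1 with 53.6 FPKM in CstF50 RNAi animals and 158 FPKM in wild type in the authors' deposited table, and their median log2 fold change was -1.25. By the names used here, no row for these genes was found in the authors' deposited table of rRNA-depleted RNA. Of 38 nuclear genes for the respiratory chain 3 were called lower and 1 higher in poly(A) RNA with a median of -0.64, and 2 were called lower and 1 higher in B with a median of 0.00. Among these, cox-6C, a cytochrome c oxidase subunit gene, had 2037 FPKM in CstF50 RNAi animals and 413 FPKM in wild type in the authors' deposited table. Of 24 tested genes for mitochondrial stress and import 7 were called lower in poly(A) RNA, with a median of -0.92, and 4 of 25 in B, with a median of -0.35. The chaperonin gene hsp-60 is a marker of the mitochondrial unfolded protein response. It had 99.9 FPKM in CstF50 RNAi animals and 337 FPKM in wild type (Cuffdiff q = 0.0413) in the authors' deposited table. Its log2 fold change was -1.76, and larger falls were called for dnj-10 (-2.16), tin-44 (-1.94) and tomm-40 (-1.93). Relative to the median gene, hsp-60 was not called (adjusted p = 0.630 by the normal deviate). A further gene of the mitochondrial unfolded protein response, ubl-5, had means of 186 normalized counts in B and 530 in A (DESeq adjusted p = 0.000160) in the authors' deposited table.

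The cytosolic ribosomal protein genes gave another picture in poly(A) RNA. Of 80 tested genes 9 were called higher in CstF50 RNAi animals and none lower, with a median log2 fold change of -0.22, beside 2 higher and 15 lower of 67 and a median of -0.98 in the mitochondrial family. Relative to the median gene, 20 cytosolic genes were called higher and none lower, beside 4 and none in the mitochondrial family. In rRNA-depleted RNA 11 of 78 cytosolic genes were called lower in B and none higher, with a median of -0.28 beside -0.52 in the mitochondrial family. Of all tested genes 3.12% were called higher in poly(A) RNA, and of all genes 2.77% were called lower in B. The difference between the families was not tested.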

How the data were processed

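The members and gene lists were chosen with earlier results of these data known. The authors deposited 2 tables of their own comparisons without a column per library, and the submitters' processing notes name Bowtie, DESeq and the build ce10, with no version. Which counter and annotation were used is not given in the sources used here. Per the file headers, the poly(A) table holds 1 FPKM per group beside Cuffdiff's p-value, q-value and a test score that was not used. Per the file headers, the rRNA-depleted table holds mean normalized counts (a signal per gene, counts over size factors) of conditions A and B, their fold ratio, and DESeq's p-value before and after adjustment. Its 25858 rows hold 25640 genes, since 218 rows repeat a name. The authors' log2 fold columns hold infinite entries, so folds were recomputed from the group values.

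Genes with a deposited q-value (poly(A)) or adjusted p-value (rRNA-depleted) under 0.05 count as called. The standard error of a poly(A) log2 fold change was its size over the normal deviate that gives the deposited 2-sided p-value. Each rRNA-depleted mean is the average of 2 whole counts, each divided by its size factor, which gave unique whole counts for 25399 genes in B and 25340 in A, and for 100% of means up to 1000. Means over 10000 were not searched, and a solution had to lie within 0.8 units of the last of 10 printed digits. Size factors were 3.632 and 1.541 in B and 0.7388 and 0.2491 in A. Library numbers are names only. Recovered counts with a mean of at least 10 were fitted with limma-voom (limma 3.58.1, R 4.3.3). Coordinates are the authors' loci on ce10, 1-based. Names, overlaps, lengths and neighbours come from WBcel235 annotation, and the builds were not mixed. Named genes were those called in either table or relative to the median gene, the 5 highest and 5 lowest fold changes per table, the 5 highest and 5 lowest FPKM, and the untested ones.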

Additional observations from a re-analysis of the deposited data

How the results depend on the processing

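The poly(A) count of 17 called family genes (15 lower, 2 higher) became 7 (5 lower, 2 higher) when p-values were adjusted over all rows of the table, and 4 (0 lower, 4 higher) relative to the median gene. It was 17 with a minimum of 1 FPKM, 16 over loci used by 1 row, with p-values adjusted again, and 13 without overlapping genes, an alternative chosen after seeing the data. The count of 4 relative to the median gene was 17 with no centring. The rRNA-depleted count of 16 became 19 with a minimum mean of 10, 18 relative to the median gene, 12 without overlapping genes, and 45 with limma-voom, where leaving out 1 library gave 20 and 31 (A) and 43 and 47 (B). The cause of these changes was not tested. The family's poly(A) median was -0.98 to -0.91 with another pseudocount or filter, -0.87 without overlapping genes and -0.08 relative to the median gene, and the rRNA-depleted median lay between -0.60 and -0.50 under the alternatives run. Relative to the median gene, 18 negative poly(A) fold changes of the family turned positive, among them those of 5 named genes, mrpl-13 (0.29), mrpl-18 (0.037), mrpl-32 (0.82), mrpl-40 (0.41) and mrpl-41 (0.16). None of these had been called. In limma-voom 3 small positive values became negative, mrpl-12 (-0.0007), mrpl-22 (-0.086) and mrpl-37 (-0.05). Without 1 library, 9 rRNA-depleted fold changes of the family changed sign, none of them called by the authors' test. Those of named genes were mrpl-12 (-0.25 and -0.0028), mrpl-19 (0.034), mrpl-22 (-0.15, -0.070 and -0.23), mrpl-34 (0.054), mrpl-37 (-0.17 and -0.14) and mrps-30 (0.026 and 0.006). No paired analysis was possible because the tables have no column per library, so the replicate numbers of the labels cannot be tied to values. Poly(A) depth is unknown, and no family gene had a spread between poly(A) libraries to set beside its fold.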
